A study of Camellia sinensis with 12 samples.

Results

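The 7 IDs described here, cas-MIR396-3, cas-MIR396-6, cas-MIR396-8, cas-MIR396-10, cas-MIR396-11, cas-MIR396-13 and cas-MIR396-14, belong to miR396, a conserved plant miRNA family, and were counted in young shoots of the tea plant. They were chosen by name from the 23 IDs that begin with cas-MIR396, among 650 miRNA IDs in all, because their levels in 4 tissues had been seen to run in opposite directions within the family. Those levels chose the members, so they are given as a description and without a test. The tissues were sBud, the bud, sL1, the leaf next to it, sL2, the second and more mature leaf, and sS1, the stem between these leaves, of untreated Xinyang Maojian (XYMJ) tea plants, with 3 small RNA libraries per tissue. Each sample pooled tissue of several plants of this variety, so a library gives an average over plants and over all cell types of the tissue. The authors called the libraries of a tissue biological replicates, and how the plants were divided among them is not given in the sources used here, so the p-values below measure the spread between these libraries. Less miRNA per cell and fewer cells of a type cannot be told apart in such samples.

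Plant miRNAs guide an Argonaute protein to matching mRNAs, which are then cut or translated less. In Arabidopsis, miR396 matches the mRNAs of most growth regulating factors (GRFs), transcription factors that, with their GIF partner proteins, keep cells of young leaves dividing. Its level in Arabidopsis leaves is low where cells divide and higher as the leaf matures. In the same plant, TCP transcription factors, whose mRNAs are targets of miR319, raise the level of miR396. Whether each of the 7 tea IDs is the strand that matches GRFs was not analysed here, and no target mRNA was measured in the files used.

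The values were raw counts of reads per ID. Library totals ranged from 387015 to 746562 counts, and levels are given as CPM, counts scaled to 1e+06 per library by the library total and edgeR's TMM factor. All 7 members had at least 10 counts over the 12 libraries and passed the filter that left 222 IDs in the test. A count of 3 stood for 4.26 to 8.51 CPM, so cas-MIR396-8, cas-MIR396-10, cas-MIR396-13 and cas-MIR396-14 were near the limit of detection in several libraries. The rule by which reads matching several IDs were counted is not given in the sources used here. Reads of near-identical members may therefore have been split between IDs, which leaves the division of reads among members uncertain. The files hold miRNA IDs only, so the tissues were not checked against marker genes. Over the 222 IDs, the sL1 libraries lay nearly as close to sS1 as to each other. The root mean square (RMS) difference in log2 CPM was 0.78 to 0.99 within sL1 (median 0.84), and 0.83 to 1.05 between sL1 and sS1 (median 0.91), against a median of 2.03 between sL1 and sL2. The library sL1 replicate 2 was on average 0.88 from the sS1 libraries and 0.91 from the other sL1 libraries, whereas replicates 1 and 3 were closer to their own tissue. Since it also carried several of the highest miR396 values of its tissue, results that rest on it are given with and without it.

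The miR396 family was least abundant in the bud and most abundant in the stem. All cas-MIR396 IDs together made up 1.47% ± 0.31 of the counts in the bud, 6.05% ± 3.0 in sL1, 4.82% ± 0.51 in sL2 and 9.90% ± 1.17 in the stem (SD, n = 3 each). The 3 stem libraries had 101283, 102272 and 123323 CPM of the family, and the 3 bud libraries had 12175, 18572 and 12369 CPM. sL1 was split, with 101129 CPM in replicate 2 and 45840 and 41580 CPM in replicates 1 and 3. The 7 members held 91.1% to 99.2% of the family's counts in every library.

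cas-MIR396-11 carried nearly all of this signal and was the 5th most abundant of all 650 IDs, with 333280 counts in total. Its share of the family's counts was 90.3% ± 0.887 in the bud, 92.9% ± 0.227 in sL1, 79.1% ± 0.932 in sL2 and 90.2% ± 0.510 in the stem. It had 90901, 92026 and 111885 CPM in the stem, against 10872, 16811 and 11259 CPM in the bud. The second leaf lay between them, at 38293, 34380 and 31171 CPM. In sL1 its level was 42655, 94149 and 38538 CPM. The bud libraries were below all others, those of sL2 were narrowly below those of sL1, and the ranges of sL1 and sS1 overlapped through sL1 replicate 2 alone. The narrow gap between sL2 and sL1 depended on the TMM factors. By library size alone these 2 tissues overlapped, with 13580 of 387015 counts in sL1 replicate 3 and 25387 of 640623 in sL2 replicate 1. The log2 fold change of cas-MIR396-11 was 2.92 (SE 0.30) in sS1 vs. sBud, 2.17 (SE 0.29) in sL1 vs. sBud and 1.42 (SE 0.29) in sL2 vs. sBud. The stem exceeded sL2 by 1.51 (SE 0.29) on the log2 scale, and sL2 vs. sL1 gave -0.76 (SE 0.28). In sS1 vs. sL1 its value of 0.75 (SE 0.28) became 1.21 without sL1 replicate 2, whose level was 2.32 times the mean of the other 2 sL1 libraries and 0.958 times the mean of the stem.

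**Figure D1:**
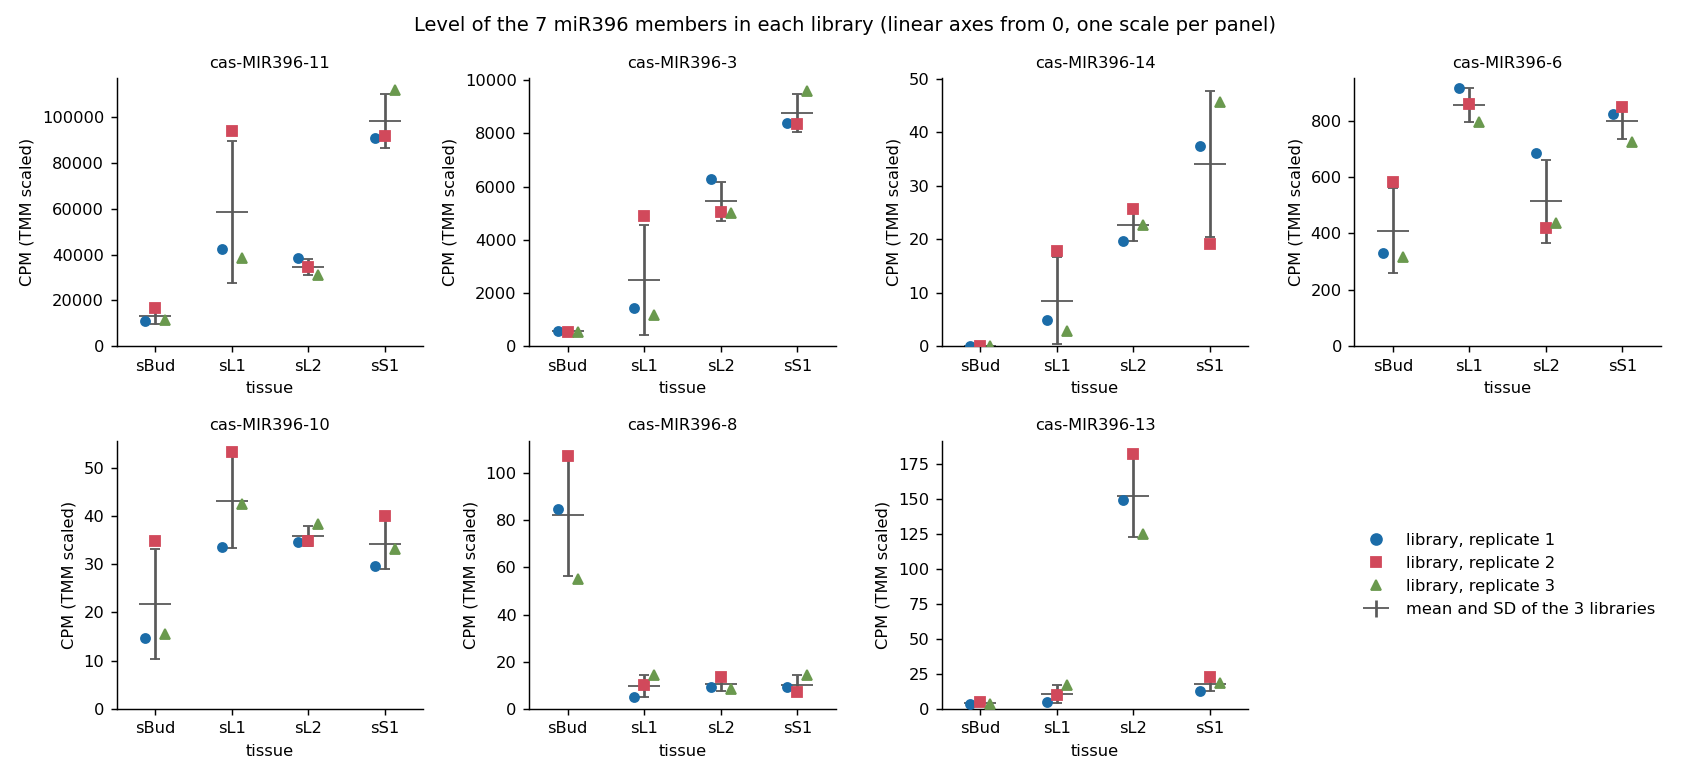
Level of each of the 7 members in CPM (TMM scaled), with 1 point per library, the tissues in the order sBud, sL1, sL2 and sS1, and bars for the mean and SD of 3 libraries. cas-MIR396-11 and cas-MIR396-3 were lowest in the bud and cas-MIR396-8 was highest there, while cas-MIR396-13 stood out in sL2, at 125 to 183 CPM.

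The second most abundant member, cas-MIR396-3, was the only one of the 7 whose 4 tissues did not overlap at all. It had 577, 535 and 541 CPM in the bud, 1416, 4891 and 1175 CPM in sL1, 6294, 5049 and 4998 CPM in sL2, and 8403, 8343 and 9611 CPM in the stem. Each tissue thus lay above the one before it in the order bud, first leaf, second leaf and stem. The gap between the leaves was narrow, at 4891 CPM in sL1 replicate 2 and 4998 CPM in sL2 replicate 3. How many of the 222 IDs separated all 4 tissues was not counted. The log2 fold changes over the bud were 2.18 (SE 0.41) for sL1, 3.30 (SE 0.43) for sL2 and 3.99 (SE 0.45) for sS1. The steps beyond sL1 were 1.13 (SE 0.40) in sL2 vs. sL1 and 0.69 (SE 0.39) in sS1 vs. sL2. sL1 replicate 2 weighed on these values, since its level was 3.78 times the mean of the other sL1 libraries. Without it the values of cas-MIR396-3 were 1.26 in sL1 vs. sBud, 1.96 in sL2 vs. sL1 and 2.69 in sS1 vs. sL1, where it was 1.82 (SE 0.41) with all libraries.

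cas-MIR396-14 showed the same order of tissues at a far lower level. It had 0 counts in each of the 3 bud libraries. In sL1 it had 2, 9 and 1 counts, in sL2 13, 17 and 16 counts, and in sS1 24, 11 and 22 counts. In CPM, sL1 lay below both sL2 and sS1 in every library, and the ranges of sL2 and sS1 overlapped. Taking 3 counts per bud library as the limit that a count of 0 allows, its level was at least 3.75-fold higher in sL2 and at least 5.63-fold higher in sS1 than in the bud. The bound for sL1 was 1.40, and it rested on sL1 replicate 2. Without that library the mean of sL1 was 3.82 CPM, from 2 and 1 counts, and no fold change from the bud could be given. The log2 fold change was 1.90 (SE 0.64) in sS1 vs. sL1 and 2.98 without sL1 replicate 2, and in sL2 vs. sL1 it was 1.32 (SE 0.64) and 2.35 without that library. For every 1000 reads of cas-MIR396-3 there were 3.45 reads of cas-MIR396-14 in sL1 (95% exact interval 1.78 to 6.04), 4.17 in sL2 (3.05 to 5.56) and 3.85 in sS1 (2.91 to 4.99). These intervals overlap, and they cover counting error only. In the bud there were 0 reads beside 843 reads of cas-MIR396-3, with an exact upper limit of 4.39 per 1000, which is above the ratios of the other tissues, so no difference of the bud in this ratio was detectable at this depth.

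cas-MIR396-8 ran the opposite way and was highest in the bud. It had 84.8, 107 and 55.0 CPM in sBud, from 46, 43 and 32 counts. Leaves and stem were all near the limit of detection, with 2, 5 and 5 counts in sL1, 6, 9 and 6 counts in sL2, and 6, 4 and 7 counts in sS1. Every library of these 3 tissues lay below every bud library, and the 3 tissues overlapped one another at 9.63, 10.4 and 10.3 CPM on average. The log2 fold changes were similar, at -3.08 (SE 0.49) in sL1 vs. sBud, -2.95 (SE 0.47) in sL2 vs. sBud and -2.98 (SE 0.48) in sS1 vs. sBud. Between the leaves and the stem they were 0.12, 0.09 and -0.03, with SEs of 0.51 to 0.55. In the comparisons with the bud, cas-MIR396-8 was the one member with a lower level outside the bud, and its level in sL1 replicate 2 was 1.04 times the mean of the other sL1 libraries.

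cas-MIR396-13 was high in the second leaf. It had 149, 183 and 125 CPM in sL2, from 99, 121 and 88 counts. The other tissues had 2, 2 and 2 counts in sBud, 2, 5 and 6 in sL1, and 8, 13 and 9 in sS1. All sL2 libraries lay above all others, and the remaining neighbours in the order, sBud and sL1 and then sL1 and sS1, overlapped. The log2 fold change was 3.85 (SE 0.45) in sL2 vs. sL1 and -3.08 (SE 0.41) in sS1 vs. sL2. Relative to the bud, whose libraries were all under 3 counts, the ratio of counts per library size was 38.6 in sL2 (95% exact counting interval 17.5 to 106), 4.50 in sS1 (1.84 to 13.2) and 2.59 in sL1 (0.920 to 8.33).

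cas-MIR396-6 and cas-MIR396-10 varied least among the members. cas-MIR396-6 had 330, 583 and 315 CPM in the bud, 916, 858 and 795 CPM in sL1, 685, 420 and 436 CPM in sL2, and 824, 848 and 724 CPM in the stem. sL1 and sS1 overlapped, as did sBud and sL2, and every library of the first pair lay above every library of the second. Its log2 fold change was 1.07 (SE 0.29) in sL1 vs. sBud, 0.97 (SE 0.29) in sS1 vs. sBud and 0.33 (SE 0.28) in sL2 vs. sBud. cas-MIR396-10 averaged 21.7 CPM in the bud, 43.2 in sL1, 35.9 in sL2 and 34.3 in the stem, from 8 to 27 counts per library. Neighbouring tissues overlapped throughout, and its value in sL1 vs. sBud was 1.02 (SE 0.42). sBud replicate 2 was the highest bud library for both, at 583 CPM of cas-MIR396-6 and 34.9 CPM of cas-MIR396-10. Without that library, cas-MIR396-6 had a log2 fold change of 1.31 in sS1 vs. sBud, and cas-MIR396-10 had 1.24 in sL2 vs. sBud and 1.17 in sS1 vs. sBud.

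A differentially expressed miRNA (DEM) was an ID that differed by more than 1 on the log2 scale, in either direction, with p below 0.05 before adjustment in edgeR's quasi-likelihood test, the thresholds of the study. The contrasts were those from which the members were chosen, so their counts are set beside the share of all tested IDs and nothing is read from them. In sL1 vs. sBud all 7 members were DEMs, 6 higher and 1 lower in sL1, where 19.4% of the 222 IDs were DEMs (9.46% higher, 9.91% lower). The calls of cas-MIR396-6, cas-MIR396-10 and cas-MIR396-13 changed there when single libraries were left out. They were no longer DEMs without sBud replicate 1, without sBud replicate 3 or without sS1 replicate 1, each of which left 4 members. cas-MIR396-14 remained a DEM with each library left out in turn, but it rested on 2, 9 and 1 counts in sL1 and 0 in each bud library. In sL2 vs. sBud 5 members were DEMs, 4 higher and 1 lower, against 43.2% of all IDs (23.4% higher, 19.8% lower). In sS1 vs. sBud the members again gave 4 higher and 1 lower, against 29.3% (13.1% higher, 16.2% lower). In each comparison with the bud, the lower DEM was cas-MIR396-8 and the higher ones included cas-MIR396-3, cas-MIR396-11, cas-MIR396-13 and cas-MIR396-14.

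Between the tissues other than the bud, 2 of the 7 members were DEMs in each comparison. In sL2 vs. sL1 the DEMs were cas-MIR396-3 and cas-MIR396-13, both higher in sL2, where 40.5% of all IDs were DEMs (21.2% higher, 19.4% lower). cas-MIR396-3 fell under the fold limit there without sL1 replicate 1, at 0.83, without sL1 replicate 3, at 0.81, and without sL2 replicate 1, at 0.89. In sS1 vs. sL1 the DEMs were cas-MIR396-3 and cas-MIR396-14, higher in the stem, against 7.21% of all IDs (4.50% higher, 2.70% lower), or 10 higher and 6 lower. In that comparison edgeR gave 0 DEMs with a Benjamini-Hochberg adjusted p below 0.05 among the 222 IDs, of which 30 had an unadjusted p below 0.05, while DESeq2 gave 4, among them 1 member. In sS1 vs. sL2 cas-MIR396-11 was higher and cas-MIR396-13 lower in the stem, against 41.4% of all IDs (20.3% higher, 21.2% lower). With library size as the only scaling, the DEMs among all IDs were 23 higher and 47 lower in sS1 vs. sBud, where TMM gave 29 and 36. They were 9 and 10 in sS1 vs. sL1, and 33 and 52 in sS1 vs. sL2, where TMM gave 45 and 47. No member that was a DEM changed its direction under any scaling tried.

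The members whose 3 libraries in a tissue all lay above or all below those of the other tissue numbered 5 in sL1 vs. sBud, 5 in sL2 vs. sBud and 6 in sS1 vs. sBud, where 25.7%, 50.9% and 41.0% of the 222 IDs did so. They numbered 5 in sL2 vs. sL1, 2 in sS1 vs. sL1 and 4 in sS1 vs. sL2, where 53.2%, 16.2% and 50.9% of the IDs did so. The 5 in sL2 vs. sL1 include cas-MIR396-11, whose libraries overlapped there by library size alone. The median log2 fold change of the 7 members was 1.34 in sL1 vs. sBud, 1.42 in sL2 vs. sBud and 2.11 in sS1 vs. sBud, where the medians of the 222 IDs were 0.00, 0.00 and -0.06. In sL1 vs. sBud and sS1 vs. sBud this median is the fitted value of cas-MIR396-13, which depends on few bud counts. In sL2 vs. sBud it is the value of cas-MIR396-11. The members were chosen on these contrasts, so nothing is read from the medians.

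**Figure D2:**
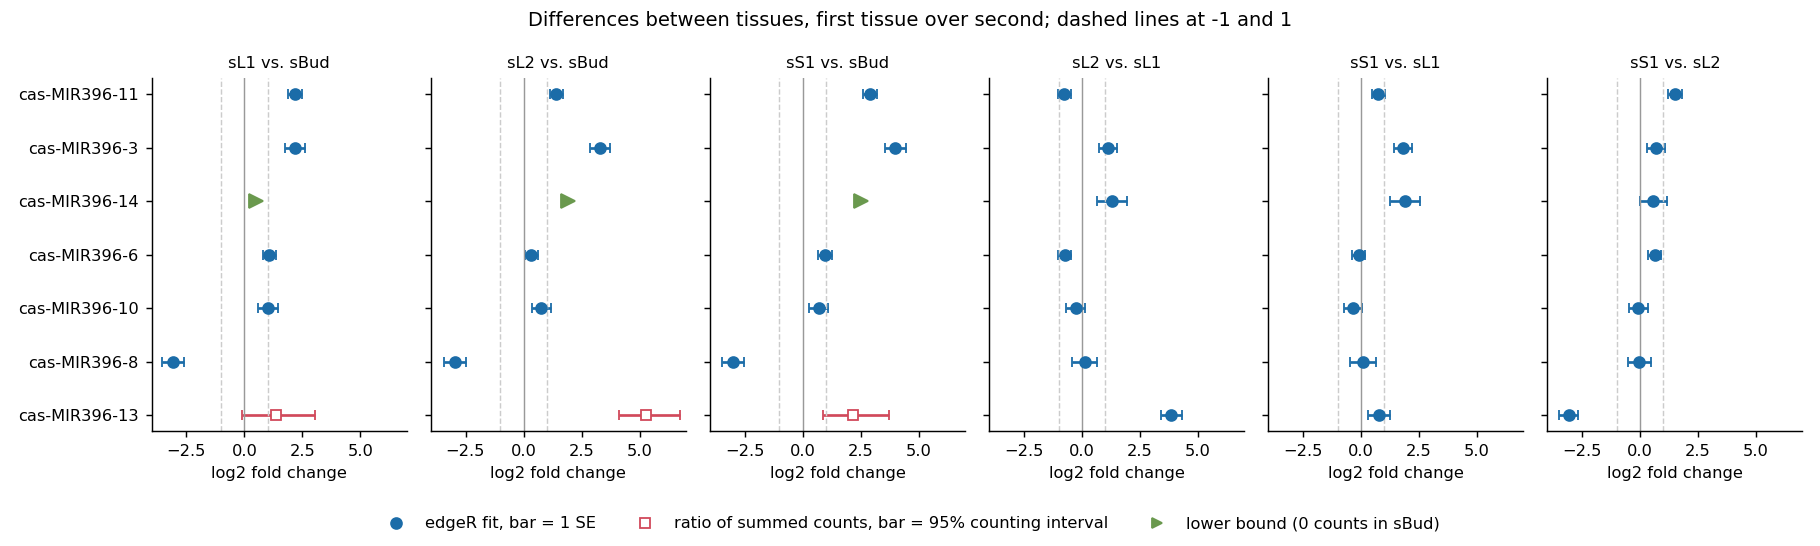
Log2 fold change of each member, first tissue over second, in the 6 comparisons. Filled points are edgeR fits with 1 SE, open squares are ratios of counts with 95% exact counting intervals, triangles are lower bounds where the bud had 0 counts, and dashed lines mark the fold limit of a DEM. cas-MIR396-8 sits near -3 in all 3 comparisons with the bud, whereas cas-MIR396-3 and cas-MIR396-11 lie above 1.

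Ratios within a library do not depend on the scaling between libraries, and they showed how the makeup of the family differed among tissues. Per 1000 reads of cas-MIR396-11, there were 44.3 reads of cas-MIR396-3 in the bud, 38.5 in sL1, 157 in sL2 and 89.7 in the stem. The second leaf was thus the tissue with the most cas-MIR396-3 relative to cas-MIR396-11, although the CPM of cas-MIR396-3 was highest in the stem. The sS1 libraries ranged from 85.9 to 92.4, the sL2 libraries from 147 to 164, and the libraries of sBud and sL1 overlapped below 54. As a share of the family's counts, cas-MIR396-3 held 8.08% ± 0.260 in sS1 and 12.4% ± 0.848 in sL2.

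The bud had the largest relative amounts of cas-MIR396-6, cas-MIR396-8 and cas-MIR396-10. cas-MIR396-6 had 31.0 reads per 1000 reads of cas-MIR396-11 in the bud, 17.1 in sL1, 14.7 in sL2 and 8.25 in the stem. For cas-MIR396-8 the values were 6.35 in the bud, 0.195 in sL1, 0.302 in sL2 and 0.103 in the stem. cas-MIR396-10 gave 0.353 in sS1 and 1.60 in sBud, with the leaves between them. For each of the 3 IDs, all bud libraries lay above all other libraries. cas-MIR396-6 and cas-MIR396-10 had their lowest mean CPM in the bud, unlike cas-MIR396-8. Their higher ratio there goes with the lower level of cas-MIR396-11, the denominator, which differed more between tissues. A high weight in the bud was not particular to members. The mean share of cas-MIR396-18 in the family was also highest there, at 1.71%, although its bud and sL1 libraries overlapped. That of cas-MIR396-21 was highest in sL2, at 3.89%.

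The second leaf had the largest relative amounts of cas-MIR396-13 and cas-MIR396-14. cas-MIR396-13 gave 4.41 reads per 1000 reads of cas-MIR396-11 in sL2, and 0.314 in the bud, 0.220 in sL1 and 0.183 in the stem. cas-MIR396-14 gave 0.662 in sL2, 0.343 in sS1 and 0.125 in sL1. For both, every sL2 library was above every library of the other tissues.

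**Figure D3:**
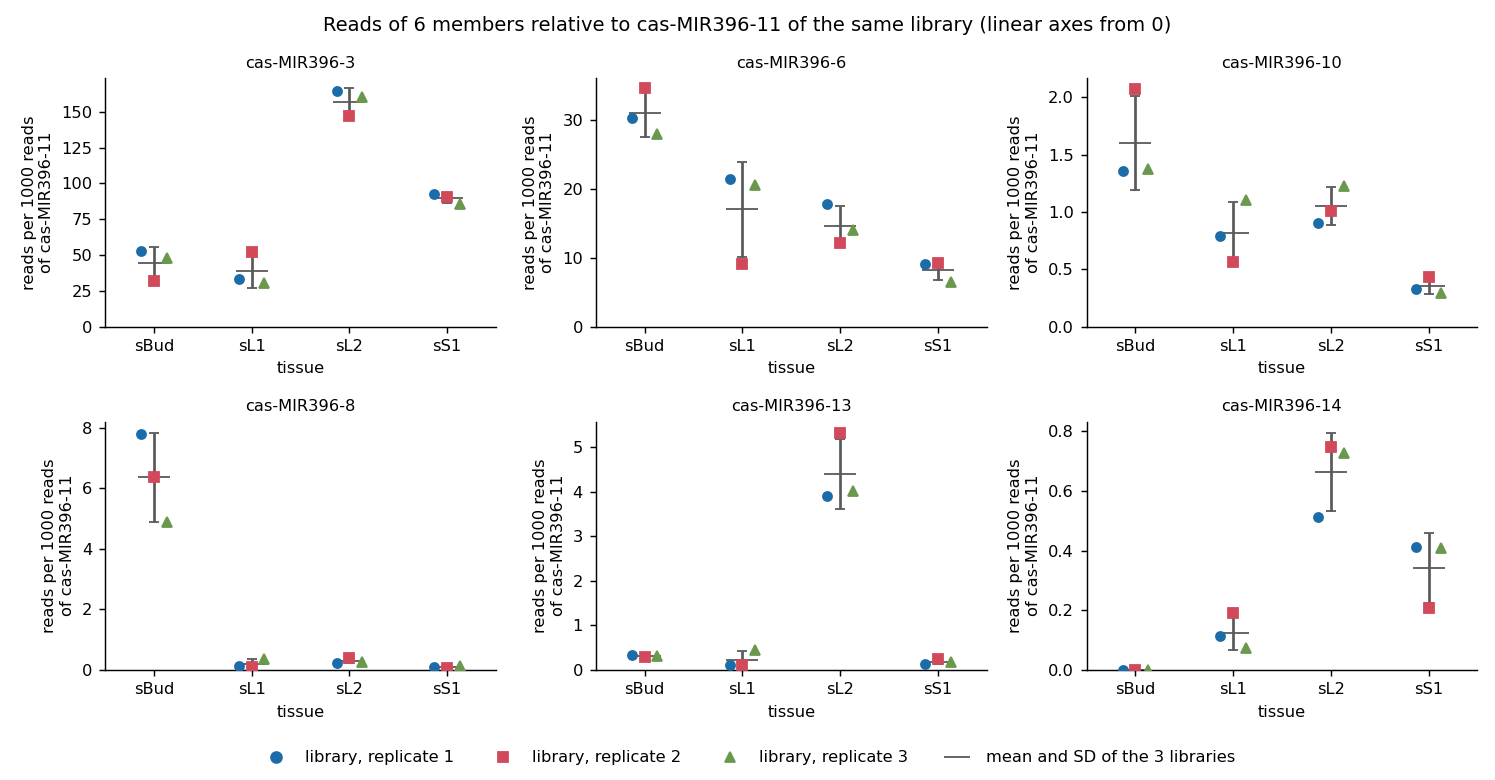
Reads of 6 members per 1000 reads of cas-MIR396-11 of the same library, with 1 point per library and bars for the mean and SD of 3 libraries in each tissue. The ratios of cas-MIR396-6, cas-MIR396-8 and cas-MIR396-10 were highest in the bud, and those of cas-MIR396-3, cas-MIR396-13 and cas-MIR396-14 were highest in sL2, at 157, 4.41 and 0.662 on average.

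The likeness of patterns was measured as the RMS difference of log2 CPM over the 12 libraries after each ID was centred on its own mean, among 138 other IDs with at least 100 counts, and a small value means a similar pattern. The members that lay closest were cas-MIR396-3 and cas-MIR396-14, at 0.37, and cas-MIR396-6 and cas-MIR396-10, also at 0.37. cas-MIR396-8 lay far from the abundant members, at 2.63 from cas-MIR396-3 and 2.18 from cas-MIR396-11.

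Outside the 7 members, cas-MIR396-11 was most like cas-MIR396-17, at 0.37, and then cas-MIR535-1, at 0.64, and cas-MIR164-2, at 0.70. Its median distance to the whole set was 1.35. cas-MIR396-3 was next most like cas-MIR164_2-1, at 0.76, and cas-MIR408-5, at 0.77. For cas-MIR396-14 the nearest after cas-MIR396-3 were cas-MIR164_2-1, at 0.67, and cas-MIR396-11, at 0.77. Both thus shared cas-MIR164_2-1 among their nearest IDs.

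The members that varied least had close neighbours. cas-MIR396-6 was nearest to cas-MIR166-29, at 0.31, cas-MIR396-18, at 0.34, and cas-MIR166-4, at 0.35. cas-MIR396-10 was nearest to cas-MIR168-2, at 0.29, cas-MIR482-5, at 0.34, and cas-MIR396-18, at 0.35. The nearest IDs of the 2 members with a peak in 1 tissue came from other families and lay at larger distances. Their median distance to the whole set was larger too, at 1.45 for cas-MIR396-8 and 1.77 for cas-MIR396-13. It was 0.89 for cas-MIR396-6 and 0.86 for cas-MIR396-10, so distances of different members are not on a common footing. cas-MIR396-8 was nearest to cas-MIR159-13, at 0.76, cas-MIR160-2, at 0.80, and cas-MIR166-22, at 0.81. cas-MIR396-13 was nearest to cas-MIR159-29, at 0.82, cas-MIR171_2-2, at 0.83, and cas-MIR319-9, at 0.84.

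The other 16 cas-MIR396 IDs are those left when the 7 members had been chosen, and 8 of them passed the filter. Since that choice was made with results of these data known, the tests of the 16 are not independent of it. Summed over the 16, they averaged 323 CPM in the bud, 981 in sL1, 2983 in sL2 and 1007 in the stem, with sL2 above all other tissues and sBud below them in every library. The sum was higher in sL2 vs. sBud by 3.18 on the log2 scale (SE 0.34, adjusted p = 3.66e-06 in edgeR's test). It was also higher in sL1 vs. sBud (log2 fold change 1.63, SE 0.33, adjusted p = 0.00250) and in sS1 vs. sBud (1.68, SE 0.33, adjusted p = 0.00123). sL2 exceeded sL1 by 1.55 (SE 0.32, adjusted p = 0.00122), and sS1 vs. sL2 gave -1.50 (SE 0.32, adjusted p = 0.00155). In sS1 vs. sL1 the difference of 0.05 (SE 0.32) was well within the spread (adjusted p = 0.948). The sum was thus highest in the second leaf, which rested on few of its IDs: cas-MIR396-21 alone gave 1715 of the 2983 CPM there and cas-MIR396-19 gave 532 CPM, mostly from sL2 replicate 2. Of the other tested IDs, cas-MIR396-5, cas-MIR396-16 and cas-MIR396-17 had their highest mean in the stem, and cas-MIR396-1 and cas-MIR396-18 in sL1.

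The most abundant of the other IDs in sL2 was cas-MIR396-21, which had 1367, 1133 and 967 counts there. It had 21, 35 and 3 counts in sBud, 54, 173 and 45 in sL1, and 240, 195 and 130 in sS1, so that sL2 lay above all other libraries. cas-MIR396-21 was higher in sL2 vs. sBud (log2 fold change 5.34, SE 0.68, adjusted p = 2.76e-05) and in sL2 vs. sL1 (3.09, SE 0.60, adjusted p = 0.000931). In sS1 vs. sL2 it was lower by 2.39 on the log2 scale (-2.39, SE 0.58, adjusted p = 0.00467). Its tissues followed the order of those of cas-MIR396-13. The bud stood lowest too, with 2.95 in sS1 vs. sBud (SE 0.63, adjusted p = 0.00323) and 2.25 in sL1 vs. sBud (SE 0.63, adjusted p = 0.0222). The last of these was not past an adjusted p of 0.05 without sL1 replicate 2 (1.65, adjusted p = 0.115) or without sBud replicate 1 (adjusted p = 0.0862), and its value was 3.20 without sBud replicate 2. The value in sL2 vs. sBud was 6.29 without sBud replicate 2 and 4.72 without sBud replicate 3, and the value in sS1 vs. sBud was 3.91 without sBud replicate 2 and 2.37 without sBud replicate 3.

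cas-MIR396-17 followed cas-MIR396-11 at a far lower level. It had 4, 11 and 3 counts in the bud, 10, 34 and 11 in sL1, 21, 24 and 18 in sL2, and 43, 39 and 47 in the stem. It was higher in sS1 vs. sBud by 2.60 on the log2 scale (SE 0.57, adjusted p = 0.00392), a value of 3.58 without sBud replicate 2. Per 1000 reads of cas-MIR396-11 it had 0.937 reads in the bud (95% exact interval 0.555 to 1.48), 0.697 in sL1 (0.525 to 0.907), 0.899 in sL2 (0.690 to 1.15) and 0.782 in the stem (0.653 to 0.929). The ratio in the 4 tissues could not be told apart at this depth.

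cas-MIR396-18 was among the 3 IDs nearest in pattern to cas-MIR396-6 and to cas-MIR396-10. It averaged 249 CPM in the bud, 684 in sL1, 518 in sL2 and 520 in the stem. Its ratio to cas-MIR396-6 still differed among tissues. Per 1000 reads of cas-MIR396-6 it had 607 reads in the bud, 786 in sL1, 1012 in sL2 and 646 in the stem. The sL2 libraries, at 860 to 1218, lay above all those of the bud (525 to 698) and stem (570 to 748). They overlapped those of sL1 (672 to 1004). cas-MIR396-18 was higher in sL1 vs. sBud by 1.46 on the log2 scale (SE 0.31, adjusted p = 0.00523). Its values of 1.06 in sL2 vs. sBud (SE 0.31, adjusted p = 0.0123) and 1.07 in sS1 vs. sBud (SE 0.31, adjusted p = 0.0179) were just past the fold limit. They were 0.76 and 0.80 without sBud replicate 3, and single other libraries also took them below the limit. In sL2 vs. sBud the value was 0.68 to 0.99 without sBud replicate 1, sL1 replicate 1 or 2, sL2 replicate 1 or 3, or sS1 replicate 2 or 3, and in sS1 vs. sBud it was 0.98 without sS1 replicate 1. The adjusted p in sS1 vs. sBud was also above 0.05, at 0.0507 to 0.0637, without sBud replicate 1 or sS1 replicate 2 or 3. cas-MIR396-16 was past the test in sS1 vs. sBud with an adjusted p of 0.0497, from 8, 11 and 18 counts in sS1 and 2, 2 and 2 in sBud, which is close to the threshold. The adjusted p was 0.0522 to 0.171 without any 1 of 7 libraries, sBud replicates 1, 2 and 3, sL2 replicates 1 and 3 and sS1 replicates 2 and 3.

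cas-MIR396-12 and cas-MIR396-19 passed the test through sL2 libraries that differed widely among themselves. cas-MIR396-19 had 4, 949 and 111 counts in sL2, and at most 14 counts in any library of the other tissues. Its log2 fold change in sL2 vs. sL1 was 4.85 (SE 1.28, adjusted p = 0.00742), and 2.07 without sL2 replicate 2 (adjusted p = 0.108). In sS1 vs. sL2 it was -4.71 (SE 1.25, adjusted p = 0.00787), and -1.89 without that library (adjusted p = 0.136). cas-MIR396-12 had 0, 239 and 58 counts in sL2, 5 counts in sS1 replicate 2, 1 count in sBud replicate 1 and 0 in every remaining library. Since 1 sL2 library had 0 counts, sL2 overlapped with each other tissue, although the test gave an adjusted p of 0.00701 in sL2 vs. sBud, 0.00713 in sL2 vs. sL1 and 0.0140 in sS1 vs. sL2. The last was 0.0867 without sL2 replicate 2 and 0.0570 without sS1 replicate 1. In sL2 vs. sBud the ratio of counts was 223 for cas-MIR396-12 (95% exact counting interval 39.8 to 8850) and 267 for cas-MIR396-19 (91.0 to 1295, adjusted p = 0.00140), with overlapping libraries in both cases. These intervals do not cover the spread between libraries. Without sL2 replicate 2 the ratios were 64.7 for cas-MIR396-12 and 42.8 for cas-MIR396-19. Without sBud replicate 3 they were 138 and 165, and without sBud replicate 1 that of cas-MIR396-19 was 172. The bud counts of cas-MIR396-12 came from sBud replicate 1 alone and those of cas-MIR396-19 from sBud replicate 2 alone, and without these libraries no ratio could be formed. Both IDs were highest in sL2 replicate 2, and their part in the sum of the other IDs was largest there. Without that library, the sum still gave 1.31 in sL2 vs. sL1 and -1.26 in sS1 vs. sL2.

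**Figure D4:**
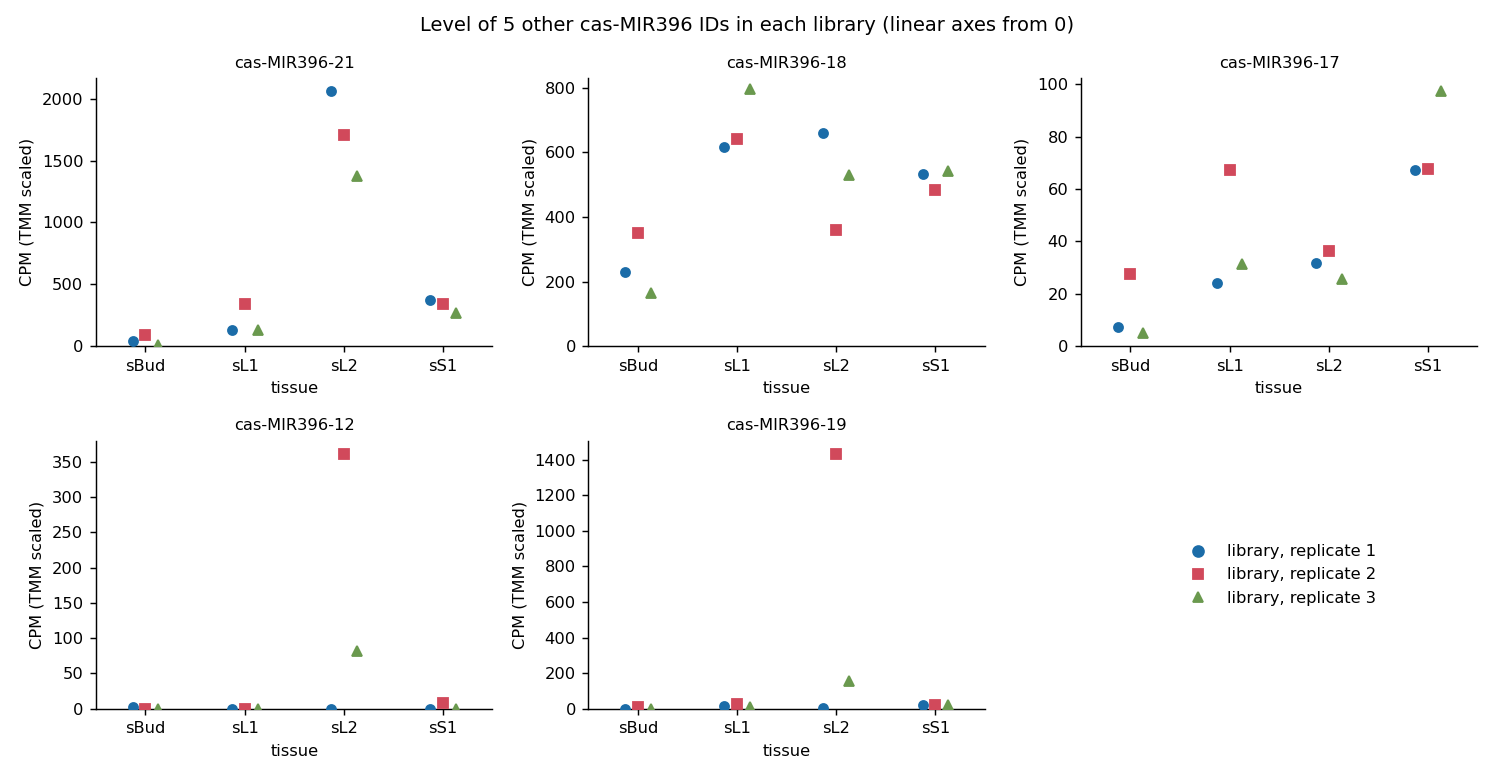
Level in CPM (TMM scaled) of 5 cas-MIR396 IDs outside the 7 members, with 1 point per library and tissues in the order sBud, sL1, sL2 and sS1. cas-MIR396-21 was high in all 3 sL2 libraries, whereas cas-MIR396-12 and cas-MIR396-19 were high in replicate 2 of sL2 and at or near 0 in its replicate 1.

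Among the 8 other IDs tested, 4 were DEMs in sL1 vs. sBud, 5 in sL2 vs. sBud and 5 in sS1 vs. sBud, where 19.4%, 43.2% and 29.3% of all IDs were DEMs. Each of these was lower in the bud. The counts fell to 2 in sL1 vs. sBud without sL1 replicate 2, to 3 in sL2 vs. sBud without any 1 of 7 libraries, sBud replicates 1 and 3, sL1 replicate 1, sL2 replicates 1 and 3 and sS1 replicates 2 and 3, and to 3 in sS1 vs. sBud without sBud replicate 3 or sS1 replicate 1. With an adjusted p below 0.05 they were 2, 4 and 4, where 12.6%, 38.7% and 22.5% of all IDs were DEMs. In sL2 vs. sL1 3 of the 8 IDs were DEMs, all higher in sL2, against 40.5% of all IDs, and in sS1 vs. sL2 1 was higher and 3 were lower in the stem, against 41.4% of all IDs. Both counts are near the share over all IDs. In sS1 vs. sL1 edgeR gave 0 DEMs, 0 of the 8 IDs had an unadjusted p below 0.05, and DESeq2 also gave 0. Without sL1 replicate 2, cas-MIR396-16 and cas-MIR396-17 were higher in sS1 vs. sL1 at the unadjusted threshold, with adjusted p values of 0.203 and 0.251. In the 3 comparisons with the bud, 0 of the 8 were DEMs with a higher level in the bud, the direction of cas-MIR396-8.

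The cas-MIR319 IDs, of the family whose TCP targets act on miR396 in Arabidopsis, were taken as the list of other miRNAs of the pathway. Of 9 listed IDs, 8 were tested. In sL2 vs. sBud 7 of 8 were higher DEMs, against 23.4% of all IDs. In sL2 vs. sL1 8 of 8 were higher, against 21.2%, and in sS1 vs. sL2 8 of 8 were lower, against 21.2%. The medians of their log2 fold changes were 2.45, 5.39 and -4.19. In sL1 vs. sBud 4 of 8 were lower DEMs and 0 were higher, against 9.91% and 9.46% of all IDs. In sS1 vs. sBud 2 were lower and 0 were higher, against 16.2% and 13.1%. The medians of these comparisons were -2.14 and -1.31. In sS1 vs. sL1 1 of 8 was a DEM, higher in sS1, against 4.50% of all IDs, and the median was 1.60. Of the members, only cas-MIR396-13 had a cas-MIR319 ID among its 3 nearest patterns.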

How the data were processed

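The 12 small RNA libraries came from 4 tissues of XYMJ tea plants. Groups were taken from the deposited titles, with the meaning of the tags from the study's methods, because the deposited tissue field reads Leaf for every library. According to these methods, the authors trimmed the reads, kept those of at least 20 nt, set other ncRNA classes aside and matched what remained to miRBase's plant miRNAs, allowing 2 mismatches. The authors deposited raw counts per miRNA ID, without normalization.

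The counts were fitted with the quasi-likelihood test of edgeR 4.0.16 in R 4.3.3 (TMM factors, 1 term per tissue) over the 222 IDs with at least 10 counts, in 6 comparisons, and p-values were Benjamini-Hochberg adjusted over all rows. The sum of the other cas-MIR396 IDs replaced its members in a second fit. Each SE was calculated back from edgeR's test, as the absolute log2 fold change divided by the square root of the F statistic. For the 7 members it is therefore not independent of the choice, and no test is read from it. Where a tissue had at most 3 counts in each library, a ratio of counts is given, and where it had 0, a bound against 3 counts per library. The profiles of likeness used a prior count of 2. Besides the 7 members, the text names other cas-MIR396 IDs that were DEMs with an adjusted p below 0.05 or held at least 5% of the family, and the 3 IDs nearest to each member. The members and lists were chosen with earlier results of these data known. The fit was run on simulated counts with the same dispersion for every ID, as a check of the code. In the data the spread between libraries differed among IDs, so the simulation does not test the calls made here. Alternatives were DESeq2 1.42.0, RLE factors, library size only, removal of the 5 most abundant IDs, no filter, filterByExpr, adjusted p, the replicate block, each library left out, and a family sum of filtered IDs.

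Within a tissue, no library was a copy of another: between replicates, the chi-square per degree of freedom was 16.1 to 124. Pairs of libraries from different tissues were not compared in this way.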

Additional observations from a re-analysis of the deposited data

How the results depend on the processing

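Counts of DEMs are given for all IDs, the members and the other cas-MIR396 IDs. With an adjusted p below 0.05, sL1 vs. sBud gave 28 DEMs in place of 43, 5 members in place of 7 and 2 other IDs in place of 4. The members lost were cas-MIR396-10 and cas-MIR396-13. With the same threshold, sS1 vs. sL1 gave 0 DEMs in place of 16 and 0 members in place of 2. In sL1 vs. sBud, cas-MIR396-10 was also not a DEM with library size only or without a filter. cas-MIR396-13 was not a DEM there with library size only, DESeq2, no filter or the replicate block. In sL2 vs. sL1, cas-MIR396-14 became a DEM with library size only. The other IDs in sS1 vs. sBud numbered 3 with library size only and 3 with DESeq2, in place of 5, and in sS1 vs. sL1 1 without a filter and 1 with the replicate block, in place of 0. The sum of the other IDs in sS1 vs. sL1, near 0, turned to -0.049 with library size only, -0.13 with filterByExpr and -0.043 without sL1 replicate 1. With each library left out in turn, all DEMs ranged from 34 to 46 in sL1 vs. sBud, 87 to 100 in sL2 vs. sBud, 56 to 71 in sS1 vs. sBud, 83 to 92 in sL2 vs. sL1, 14 to 22 in sS1 vs. sL1 and 76 to 93 in sS1 vs. sL2. In the same order, the members ranged from 4 to 7, 5 to 6, 5 to 7, 1 to 3, 2 to 3 and 2 to 3, and the other IDs from 2 to 5, 3 to 6, 3 to 6, 3 to 3, 0 to 2 and 3 to 4. The sum of the other IDs ranged from 1.35 to 2.04, 2.91 to 3.61, 1.40 to 2.09, 1.31 to 1.94, -0.043 to 0.25 and -1.80 to -1.26. The cause of these changes was not tested. Deviations of same-numbered libraries from their tissue means had r from -0.15 to 0.17 over 18 pairs, 1 of them over 0.1. For different numbers r ran from -0.15 to 0.20, and 6 of 12 libraries correlated best with their own number. Correlations of deviations from means of 3 libraries cannot exclude a pairing or a shared batch, and the sample titles give only a number. The replicate block gave 41, 96, 62, 82, 19 and 89 DEMs in the 6 comparisons. Library size only moved the median of all IDs by -0.18 to 0.17 in 5 comparisons and by -0.26 in sS1 vs. sL2 on the log2 scale. Over all alternatives, 0 members that were DEMs changed direction. The depth limits cas-MIR396-8, cas-MIR396-10, cas-MIR396-13 and cas-MIR396-14, whose low tissues had few counts per library.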
